A study of Mus musculus with 6 samples.

Results

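The antiviral type I interferon response genes are a set of 39 named mouse genes that cells are known to transcribe after interferon, among them the IFIT, OAS, MX, IFITM and PARP families and the ISG15 conjugation system. The members were picked by name, but with earlier results of these data known. They were found by gene identifier among the 55335 genes counted in each library, so the set held 39 of 55335 genes. They were counted in B16-BL6 cells, a mouse melanoma line of C57BL/6 origin, in 3 scrambled control cultures and 3 IFNγR1KO cultures. Scrambled control cells had received a lentiviral CRISPR construct with a guide against GFP (the labels give their genotype as WT), and IFNγR1KO cells had received guides against the first exon of Ifngr1, which encodes the ligand-binding chain of the interferon-γ receptor, and were grown from single clones screened by their PD-L1 response. All 6 cultures thus shared the parental line and a lentiviral CRISPR vector. Cultures were seeded overnight in triplicate, and no interferon or other agent is named for them. The labels do not say whether replicates 10, 11 and 12 are of the same clone, so the loss of the receptor and the properties of a clone cannot be told apart, and p-values measure the spread between these parallel cultures.

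Interferons of type I (IFN-α, IFN-β and relatives) bind the receptor chains IFNAR1 and IFNAR2, whose kinases JAK1 and TYK2 activate the ISGF3 transcription factor complex, with STAT2 and IRF9 among its parts, which binds the interferon-stimulated response element in the promoters of antiviral genes. Interferon-γ uses a separate receptor, whose signal acts through gamma-activated sites, and part of the antiviral genes answer to both. Many of these genes also keep a low level of transcription in cells to which no interferon was added.

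The libraries held 6698956 to 10579788 counts on genes, and each IFNγR1KO library held fewer than each scrambled control library. A single count was worth 0.0966 to 0.109 CPM in scrambled control and 0.135 to 0.142 CPM in IFNγR1KO libraries, where CPM is counts scaled to a common total of tested genes, with TMM factors. Levels per exonic length are given as RPKM, which is CPM per kilobase of exon. Ifngr1 itself had 154, 144 and 172 counts in scrambled control and 80, 85 and 82 in IFNγR1KO libraries (edgeR, log2 fold change -0.47, SE 0.16, adjusted p = 0.0729). Its transcript was lower in each IFNγR1KO library but did not pass the test, and these counts do not show whether it still encodes a receptor. The 7 melanocyte markers (such as Dct, Tyrp1 and Pmel) were counted in every library, at a summed 31700 to 34700 CPM in scrambled control and 27900 to 32800 CPM in IFNγR1KO. Of 6 immune markers, 4 (Ptprc, Cd3e, Itgam and Adgre1) were at or under 3 counts in every library, and the sum of the 6 ranged from 5.89 to 8.36 CPM in scrambled control and from 3.51 to 6.54 CPM in IFNγR1KO. Above that floor were Lyz2, with 65, 57 and 51 counts in scrambled control and 36, 26 and 21 in IFNγR1KO libraries, and Cd68, with 4 to 11 counts. Of 4 stromal markers, 3 (Dcn, Pecam1 and Cdh5) were at or under 3 counts in every library, and the sum of the 4 ranged from 3.28 to 4.45 CPM against 1.76 to 2.42 CPM. Pdgfra had 38, 32 and 36 counts in scrambled control and 17, 13 and 15 in IFNγR1KO libraries. The melanoma label was thus borne out by its markers. The part of the markers in the results was not tested. With all libraries thinned to the smallest total, 6 antiviral genes were called lower and 4 higher, where the full libraries gave 6 and 5. The share of all genes called after thinning is not given here. Positions are those of GRCm38 with the GENCODE M21 annotation.

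Without added interferon, most of the antiviral genes were already transcribed. In scrambled control cells 28 of the 39 had at least 1 CPM in all 3 libraries, and in IFNγR1KO cells 30 did. The IFNγR1KO cultures were compared with the scrambled control cultures to see whether this resting level differed between them. The antiviral genes did not move together. Of the 32 genes that passed the filter on low counts, 6 were lower in IFNγR1KO cells (Ifi47, Cmpk2, Pml, Herc6, Ube2l6 and Lgals3bp) and 5 were higher (Ifit1, Isg20, Isg15, Mx2 and Tor3a), at an adjusted p under 0.05 (quasi-likelihood test of edgeR, Benjamini-Hochberg over all 13642 genes tested). The remaining 21 tested genes did not pass in either direction. The count of lower genes was 3 without IFNγR1KO replicate 10 and also 3 without replicate 11. The share of all genes called in those fits is not given here. Whether the loss of calls was particular to the antiviral genes was not tested.

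These calls were 18.8% lower and 15.6% higher among the 32 antiviral genes tested. Over all 13642 genes the same rule called 7.62% lower and 7.73% higher. With the further demand of a log2 fold change beyond 1 in size, as the study used for its DEGs, 3 antiviral genes were lower (Ifi47, Cmpk2 and Pml) and 4 were higher (Ifit1, Isg20, Isg15 and Mx2), beside a background of 1.96% lower and 3.25% higher. The median log2 fold change of the 32 was -0.02, with 16 below and 16 above 0 and a range from -2.57 to 2.27, and the median over all genes tested was -0.0015. The IFNγR1KO libraries lay wholly below the scrambled control libraries for 12 of the 32 and wholly above for 7, while 16.6% of all tested genes lay wholly below and 16% wholly above. In these bulk samples, fewer cells with a transcript and less of it per cell cannot be told apart. A gene can also pass the filter through its higher group alone. Usp18, Isg20, Mx2 and Rtp4 reached it in all 3 IFNγR1KO libraries but not in all 3 scrambled control libraries, Ifi47 and Xaf1 reached it in the reverse way, and Mx1 in libraries of both groups mixed, so the counts over tested genes are descriptions of those genes.

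**Figure D1:**
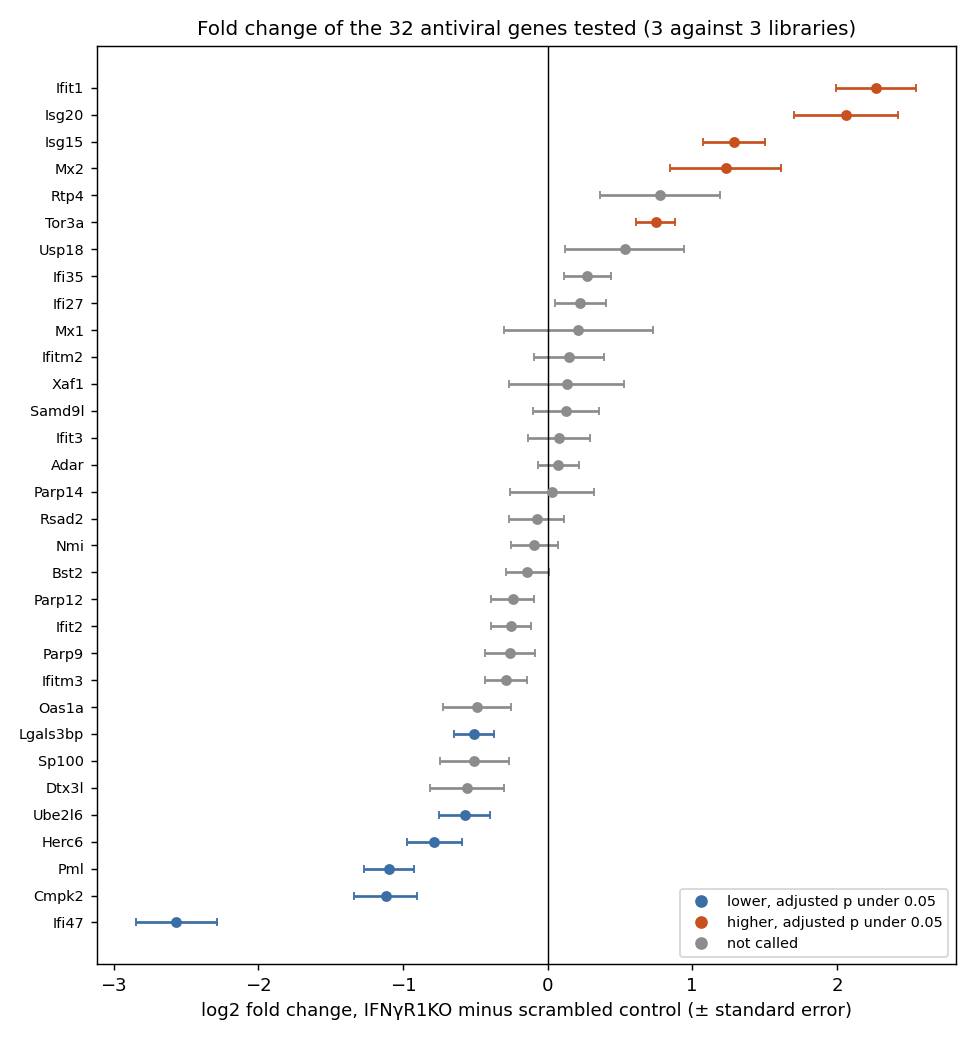
Log2 fold change (IFNγR1KO minus scrambled control, horizontal axis) of the 32 antiviral genes that were tested, from edgeR's quasi-likelihood fit, with bars of 1 standard error and 3 libraries in each group. Ifi47 stands lowest at -2.57 and Ifit1 highest at 2.27, with 6 genes called lower in blue, 5 called higher in orange and 21 not called in grey around 0.

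Promoter stretches of 6 members that hold a core, 2 called higher, 3 not called and 1 not tested, are shown because the ISGF3 element is the known route by which type I interferon reaches these genes. The interferon-stimulated response element core was searched as TTTC, any 2 bases and TTTC, or GAAA, any 2 bases and GAAA on the other strand, from 250 bases before to 50 bases after each RefSeq transcript start (GRCm38.p6). Windows were given for 30 of the 39 genes, 36 windows in all, and the core was found in 10 of them (27.8%) against 3.44% of 32851 windows of all genes. It was found in 2 of the 5 windows of the genes that were higher (Isg15 and Ifit1), in none of the 6 windows of the 6 genes that were lower, and in 6 of 19 windows of the tested genes that were not called. The 5 windows of higher genes belong to 3 genes. With so few windows, no link between a core and the direction of change can be read. Mx2 and Tor3a had no window in the table. A match describes letters only, and its absence says only that these letters are not in that window. The stretches below are in the direction of the gene, with the cores in capitals and 20 bases on each side. Oas1a and Ifitm2, which were not called, and Oas3, which was not tested, also held a core before the start and are not printed.
Isg15 (higher; chr4:156200855-156200916, minus strand): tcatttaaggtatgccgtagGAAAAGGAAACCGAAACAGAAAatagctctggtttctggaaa
Ifit1 (higher; chr19:34640765-34640833, plus strand): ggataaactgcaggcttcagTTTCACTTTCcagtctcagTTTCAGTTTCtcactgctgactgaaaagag
Ifit3 (not called; chr19:34583353-34583436, plus strand): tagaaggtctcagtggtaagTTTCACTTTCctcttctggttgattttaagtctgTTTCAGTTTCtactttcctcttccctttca
Ifit3b (not tested; chr19:34607749-34607832, plus strand): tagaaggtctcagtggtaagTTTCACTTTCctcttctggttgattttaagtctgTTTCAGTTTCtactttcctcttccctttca
Rsad2 (not called; chr12:26456543-26456592, minus strand): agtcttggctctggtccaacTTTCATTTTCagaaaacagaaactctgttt
Bst2 (not called; chr8:71537567-71537622, minus strand): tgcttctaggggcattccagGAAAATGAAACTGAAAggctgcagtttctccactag
Isg15 held 3 overlapping cores from 78 to 57 bases before its start, Ifit1 held 2 from 104 to 76 bases before it, and Ifit3 and Ifit3b shared the same 84-base stretch. Ifit1, which was higher, and Ifit3, which was not called, held cores of the same letters. The gamma-activated site, searched as TTCNNNGAA, which reads the same on both strands, was in 7 of the 36 windows (19.4%) and 8.3% of all windows. It was in none of the windows of the 6 genes that were lower. Among the 5 windows of the genes that were higher it was found in 1, of Isg20, at 73 to 65 bases before the start. These windows too are too few to read a link with direction. In Bst2 it overlapped the element core by letters at 136 to 128 bases before the start.

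The ISG15 system, in which the ubiquitin-like protein ISG15 is attached to other proteins, had members that moved in opposite directions. Isg15 (ENSMUSG00000035692.7; chromosome 4, 156199424 to 156200818), the modifier itself, stood at 5.97, 6.96 and 4.54 CPM in scrambled control and 16.8, 12.1 and 13.9 CPM in IFNγR1KO libraries. All 3 IFNγR1KO libraries were above all scrambled control libraries, and the mean rose from 5.83 ± 1.22 to 14.2 ± 2.37 CPM (SD, n = 3), a fitted 2.44-fold difference (log2 fold change 1.29, SE 0.22, adjusted p = 0.00197). The conjugating enzyme and the ligase in the set went the other way. Ube2l6 (ENSMUSG00000027078.14; chromosome 2, 84798828 to 84810335), which encodes the conjugating enzyme, stood at 19.9, 22.1 and 15.6 CPM in scrambled control and 13.5, 12.5 and 12.7 CPM in IFNγR1KO libraries, a 1.49-fold decrease without overlap (log2 fold change -0.57, SE 0.18, adjusted p = 0.0459). Herc6 (ENSMUSG00000029798.11; chromosome 6, 57581000 to 57664632), which encodes the main ISG15 ligase of the mouse, stood at 13.4, 13.1 and 15.3 CPM and 7.81, 6.91 and 9.56 CPM, a 1.72-fold decrease without overlap (log2 fold change -0.78, SE 0.19, adjusted p = 0.0153). Usp18, the protease that removes ISG15 and dampens type I receptor signaling, stood at 0.868, 1.89 and 0.966 CPM and 2.42, 1.76 and 1.27 CPM, with groups that overlapped (log2 fold change 0.53, SE 0.41, adjusted p = 0.438). Of the Herc6 exonic length, 13.7% lies under another gene on the same strand, where htseq-count can set reads aside as ambiguous.

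The calls for the enzymes were less firm than that for the modifier. The Isg15 call held in all 6 fits that left out 1 library. The Herc6 call was lost without IFNγR1KO replicate 10 (adjusted p = 0.0622 from edgeR) or replicate 11 (0.0948). The Ube2l6 call was lost by DESeq2's Wald test (adjusted p = 0.0566) and in 5 of the 6 such edgeR fits, at an adjusted p of 0.103 and 0.159 without scrambled control replicates 1 and 2 and of 0.106, 0.172 and 0.0525 without IFNγR1KO replicates 10, 11 and 12.

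The IFIT genes encode antiviral proteins, some of which bind viral RNA ends and block translation, and the genes lie side by side on chromosome 19. Ifit1 (ENSMUSG00000034459.8; chromosome 19, 34640871 to 34650009) showed the greatest rise of the 32 tested antiviral genes. It had 17, 26 and 36 counts in scrambled control and 114, 97 and 66 in IFNγR1KO libraries, or 1.85, 2.59 and 3.48 CPM and 16.2, 13.1 and 9.28 CPM. The lowest IFNγR1KO library was above the highest scrambled control library, and the mean rose from 2.64 ± 0.818 to 12.9 ± 3.47 CPM (SD, n = 3), a fitted 4.82-fold difference (log2 fold change 2.27, SE 0.28, adjusted p = 0.000286) that was called in all 6 fits without 1 library. The other IFIT genes that were tested did not pass. Ifit2, which per exonic length was above Ifit1 in both groups (12.0 against 0.993 RPKM in scrambled control, 10.1 against 4.85 in IFNγR1KO), stood at 46.4, 42.4 and 53.1 CPM in scrambled control and 40.9, 40.4 and 37.8 CPM in IFNγR1KO libraries, without overlap (log2 fold change -0.25, SE 0.14, adjusted p = 0.258). Ifit3 stood at 5.43, 6.67 and 5.31 CPM and 6.68, 5.42 and 6.33 CPM, with overlap (log2 fold change 0.08, SE 0.22, adjusted p = 0.852). Ifit3b had 5 to 12 counts and was not tested. The longest transcripts of Ifit3 and Ifit3b share 51.2% of the 50-base windows of Ifit3, so reads from either can fail to map to a single place, and their levels are uncertain.

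Ratios of counts within a library do not depend on its depth. For 5 pairs of antiviral genes that lie near each other, ratios were set side by side after the values had been seen, as a description. Other members lie between Ifit1 and Ifit2 (Ifit3 and Ifit3b) and between Ifitm2 and Ifitm3 (Ifitm1). A two-sided exact permutation test over the 6 libraries gave adjusted p-values of 0.25 to 0.5 for the 5 pairs. With 3 libraries in a group its p cannot go under 0.1, so no pair could pass. The ratio of Ifit1 to Ifit2, whose genes are 64.5 kb apart, was 0.0398, 0.061 and 0.0656 in scrambled control and 0.396, 0.326 and 0.245 in IFNγR1KO libraries, a mean difference of 2.54 on the log2 scale (SE 0.30). The ratio of Cmpk2 to Rsad2, which lie 12.8 kb apart on chromosome 12, was 0.890, 0.926 and 0.975 in scrambled control and 0.346, 0.581 and 0.457 in IFNγR1KO libraries, a log2 difference of -1.04 (SE 0.22). Neither pair of groups overlapped. For Ifit3 to Ifit2, Dtx3l to Parp9 and Ifitm2 to Ifitm3 the groups overlapped, with log2 differences of 0.33 (SE 0.22), -0.26 (SE 0.31) and 0.47 (SE 0.31). Levels of different genes are not read from these ratios, which are not corrected for length.

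**Figure D2:**
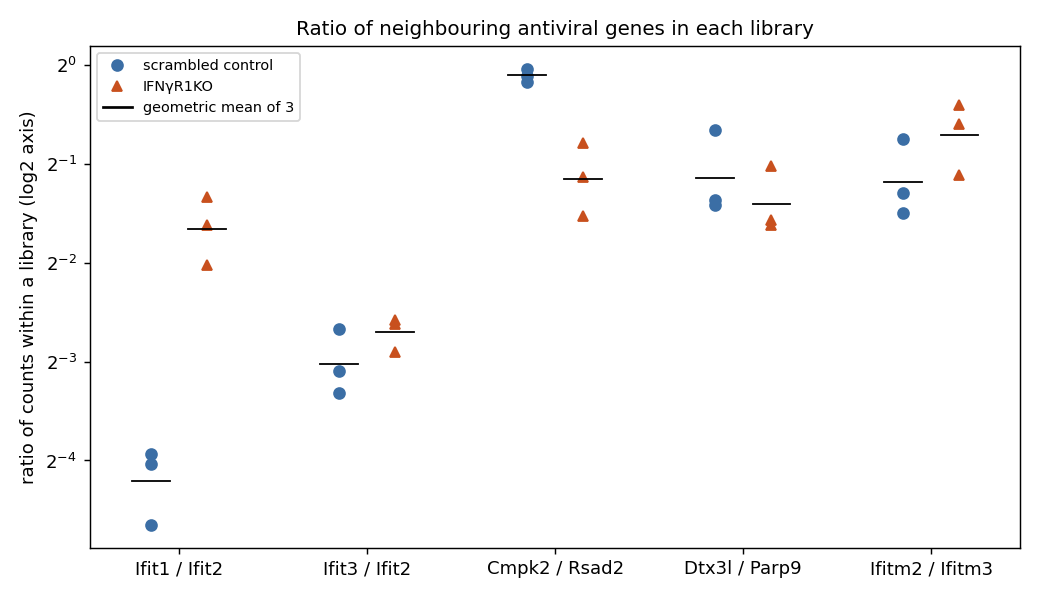
Ratio of counts of 5 pairs of antiviral genes that lie near each other (log2 vertical axis) in each scrambled control library (blue circles) and IFNγR1KO library (orange triangles), with the geometric mean of 3 libraries as a line. The Ifit1 to Ifit2 ratios of the IFNγR1KO libraries (0.245 to 0.396) sit above those of the scrambled control libraries (0.0398 to 0.0656), the Cmpk2 to Rsad2 ratios sit below, and the groups overlap in the other pairs.

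Some OAS proteins make short oligoadenylates that switch on the ribonuclease RNase L. Of the 5 OAS members, Oas1a alone was tested and passed 1 CPM. It stood at 7.71, 9.15 and 5.60 CPM in scrambled control and 5.26, 5.01 and 5.76 CPM in IFNγR1KO libraries, with overlap (log2 fold change -0.48, SE 0.24, adjusted p = 0.196). Oas2 had 0 to 8 counts, Oasl2 had 1 to 11, Oasl1 had 0 to 2 and Oas3 had 0 to 1 over the 6 libraries. Oas3 and Oasl1 were thus at or under a floor of 3 counts, worth 0.29 to 0.326 CPM in scrambled control and 0.406 to 0.426 CPM in IFNγR1KO libraries, and no direction can be read for them at this depth.

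The RNA and nucleotide enzymes held a strong call in each direction. Isg20 (ENSMUSG00000039236.18; chromosome 7, 78913424 to 78920396), an exonuclease that degrades single-stranded RNA, had 11, 19 and 14 counts in scrambled control and 67, 34 and 33 in IFNγR1KO libraries, or 1.19, 1.89 and 1.35 CPM and 9.52, 4.61 and 4.64 CPM. Replicate 10 was the highest of the 3 IFNγR1KO libraries, and all of them were above scrambled control. The mean rose from 1.48 ± 0.365 to 6.25 ± 2.83 CPM (SD, n = 3), a fitted 4.17-fold difference (log2 fold change 2.06, SE 0.36, adjusted p = 0.00242), and the call held without replicate 10 and in the other 5 fits without 1 library. Cmpk2 (ENSMUSG00000020638.8; chromosome 12, 26469204 to 26479837), a mitochondrial nucleotide kinase, stood at 8.79, 8.76 and 11.2 CPM in scrambled control and 3.84, 4.88 and 4.50 CPM in IFNγR1KO libraries. Its groups were well apart, and the mean fell from 9.59 ± 1.41 to 4.40 ± 0.527 CPM (SD, n = 3), a 2.17-fold decrease (log2 fold change -1.12, SE 0.22, adjusted p = 0.00455) called in all 6 such fits. Rsad2 encodes viperin, which makes a chain-terminating nucleotide, and is known to be induced along with its neighbor Cmpk2. It stood at 9.88, 9.45 and 11.5 CPM and 11.1, 8.40 and 9.84 CPM, with overlap (log2 fold change -0.07, SE 0.19, adjusted p = 0.841). Adar, the A-to-I RNA editing enzyme, stood at 37.0, 32.7 and 40.2 CPM and 36.2, 39.4 and 40.2 CPM, also with overlap (log2 fold change 0.08, SE 0.14, adjusted p = 0.775), and 16.8% of its exonic length lies under Chrnb2 on the other strand.

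**Figure D3:**
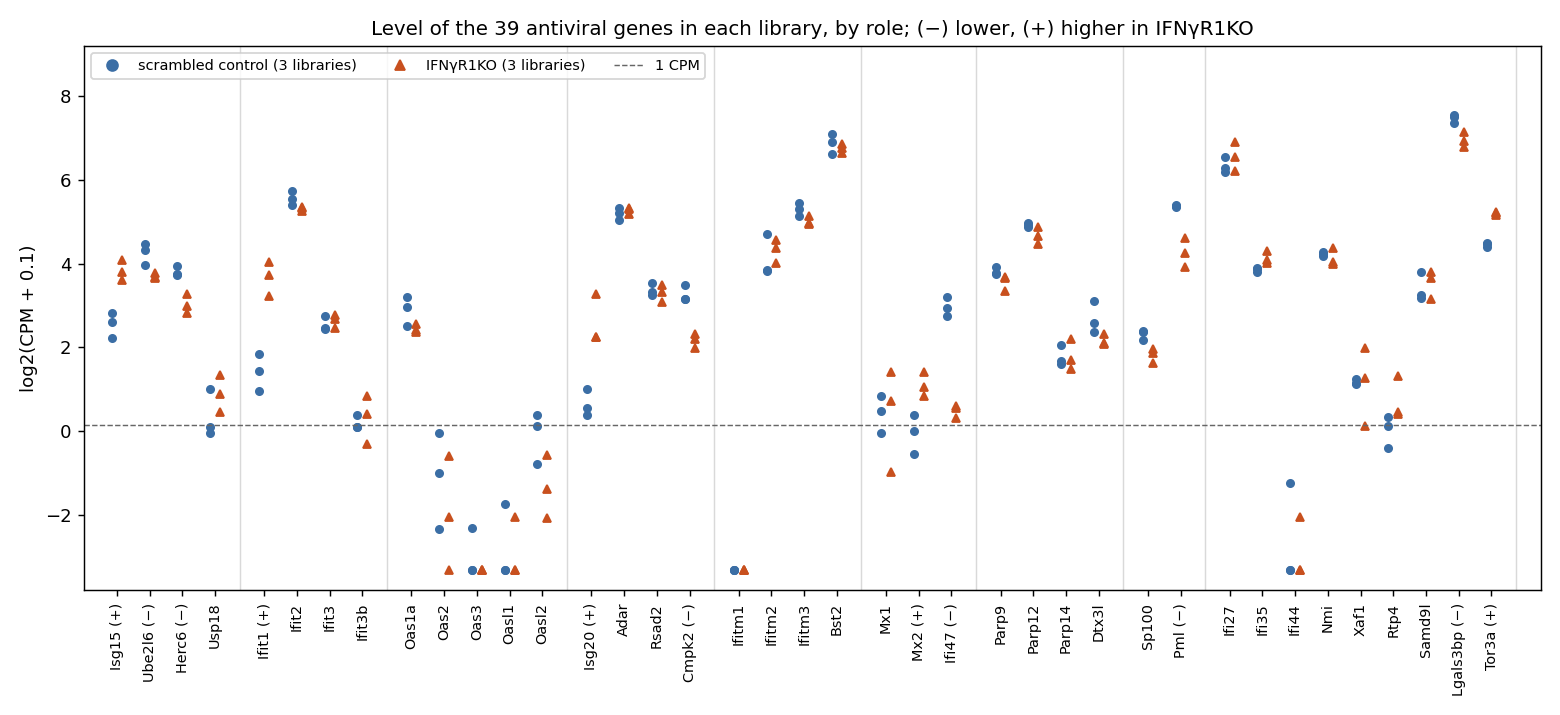
Level of each of the 39 antiviral genes in each library, as log2(CPM + 0.1), with vertical lines between roles, blue circles for scrambled control, orange triangles for IFNγR1KO and a dashed line at 1 CPM. Signs beside the names mark the 6 genes called lower and the 5 called higher, and Ifitm1, with 0 counts in all 6 libraries, lies at the bottom with Oas3, Oasl1 and Ifi44.

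The membrane restriction factors block viral entry (the IFITM proteins) or tether budding particles (tetherin, encoded by Bst2), and none of the 3 tested members passed. Bst2 stood at 119.5, 138 and 98.4 CPM in scrambled control and 115, 108 and 99.1 CPM in IFNγR1KO libraries, with overlap (log2 fold change -0.14, SE 0.15, adjusted p = 0.593). Ifitm3 stood at 35.2, 43.8 and 39.5 CPM and 31.0, 31.2 and 35.0 CPM, the IFNγR1KO libraries all lower (log2 fold change -0.29, SE 0.14, adjusted p = 0.208). Ifitm2 stood at 14.3, 26.1 and 14.0 CPM and 20.5, 23.6 and 16.2 CPM, with overlap (log2 fold change 0.15, SE 0.24, adjusted p = 0.748), and 40.9% of its exonic length lies under another gene on the same strand. Ifitm1 had 0 counts in every library, which allows up to 3 counts in each.

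Of the GTPases, Ifi47 (ENSMUSG00000078920.3; chromosome 11, 49076587 to 49096974), an immunity-related GTPase, showed the greatest fall of the 32 tested antiviral genes. It had 70, 92 and 68 counts in scrambled control and 8, 10 and 10 in IFNγR1KO libraries, or 7.60, 9.15 and 6.57 CPM and 1.14, 1.35 and 1.41 CPM. The groups were far apart, and the mean fell from 7.77 ± 1.30 to 1.30 ± 0.143 CPM (SD, n = 3), a fitted 5.92-fold decrease (log2 fold change -2.57, SE 0.28, adjusted p = 0.00011) called in all 6 fits without 1 library. Of its exonic length, 4.29% lies under a gene on the other strand and 4.49% under Olfr56 on the same strand. Mx2 (ENSMUSG00000023341.15; chromosome 16, 97535308 to 97560900), a dynamin-like GTPase, had 11, 9 and 6 counts in scrambled control and 14, 19 and 12 in IFNγR1KO libraries, or 1.19, 0.895 and 0.580 CPM and 1.99, 2.57 and 1.69 CPM, a fitted 2.35-fold difference without overlap (log2 fold change 1.23, SE 0.39, adjusted p = 0.0484). This call was lost by DESeq2 (adjusted p = 0.161), without the filter on low counts (0.0572), with all libraries thinned to the smallest (0.0858) and in 5 of the 6 fits without 1 library, at an adjusted p of 0.054, 0.127 and 0.161 without scrambled control replicates 1, 2 and 3 and of 0.125 and 0.205 without IFNγR1KO replicates 10 and 11. Mx1, which is known to be defective in C57BL/6 mice, had 3 to 18 counts, with overlap (log2 fold change 0.21, SE 0.51). The longest Mx2 transcript shares 6.55% of its 50-base windows with Mx1.

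The PARP members and their partner DTX3L modify proteins with ADP-ribose or ubiquitin, and none of the 4 passed the test. Parp12 stood at 31.2, 29.4 and 30.1 CPM in scrambled control and 25.3, 29.1 and 22.2 CPM in IFNγR1KO libraries, the latter all lower (log2 fold change -0.24, SE 0.15, adjusted p = 0.318). Parp9 stood at 15.1, 13.5 and 13.4 CPM and 12.6, 12.5 and 9.98 CPM, again without overlap (log2 fold change -0.26, SE 0.17, adjusted p = 0.363). Dtx3l, which shares its promoter region with Parp9 and forms a complex with it, stood at 5.86, 5.07 and 8.50 CPM and 4.12, 4.20 and 4.92 CPM, without overlap (log2 fold change -0.56, SE 0.25, adjusted p = 0.169), and was the only uncalled member with an unadjusted p under 0.05. Of their exonic lengths, 9.40% of Parp9 and 8.0% of Dtx3l lie under each other on opposite strands, where reads counted without strand could not be told apart. Parp14 stood at 2.93, 3.08 and 4.06 CPM and 3.13, 2.71 and 4.50 CPM, with overlap (log2 fold change 0.03, SE 0.29, adjusted p = 0.963).

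PML and SP100 are the main proteins of the PML nuclear bodies, which repress incoming viral DNA. Pml (ENSMUSG00000036986.16; chromosome 9, 58218076 to 58249786) stood at 40.9, 41.4 and 42.0 CPM in scrambled control, a narrow range, and at 15.1, 18.8 and 24.2 CPM in IFNγR1KO libraries. The mean fell from 41.5 ± 0.558 to 19.4 ± 4.58 CPM (SD, n = 3), a 2.14-fold decrease (log2 fold change -1.10, SE 0.17, adjusted p = 0.00132) called in all 6 fits without 1 library, and 1.88% of its exonic length lies under a gene on the other strand. Sp100 stood at 4.45, 5.07 and 5.12 CPM and 2.98, 3.52 and 3.80 CPM. Its IFNγR1KO libraries were all lower, but the difference did not pass the test (log2 fold change -0.51, SE 0.24, adjusted p = 0.182).

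Of the 9 other members, Lgals3bp and Tor3a passed. Lgals3bp (ENSMUSG00000033880.11; chromosome 11, 118392751 to 118402092), which encodes a secreted glycoprotein that binds galectins, stood at 164, 182 and 186 CPM in scrambled control and 111, 122 and 141 CPM in IFNγR1KO libraries, a 1.42-fold decrease without overlap (log2 fold change -0.51, SE 0.14, adjusted p = 0.0281). Its call was lost in 4 of the 6 edgeR fits without 1 library, at an adjusted p of 0.0923 and 0.0596 without scrambled control replicates 2 and 3 and of 0.152 and 0.141 without IFNγR1KO replicates 10 and 11. Tor3a (ENSMUSG00000060519.11; chromosome 1, 156653617 to 156674356), a torsin ATPase of the endoplasmic reticulum, stood at 21.1, 22.4 and 22.1 CPM and 37.8, 36.7 and 35.6 CPM, close within each group and well apart between them. The mean rose from 21.9 ± 0.703 to 36.7 ± 1.11 CPM (SD, n = 3), a fitted 1.68-fold difference (log2 fold change 0.75, SE 0.14, adjusted p = 0.00318) called in all 6 such fits.

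The rest of this group did not pass. Ifi27, which encodes a small mitochondrial protein, stood at 78.4, 93.4 and 73.3 CPM in scrambled control and 119, 93.1 and 74.1 CPM in IFNγR1KO libraries (log2 fold change 0.23, SE 0.18, adjusted p = 0.443). Ifi35 and Nmi encode a pair of interacting proteins, and Ifi35 had 136, 147 and 144 counts in the deeper scrambled control libraries and 138, 124 and 114 in the IFNγR1KO libraries, which were all higher once scaled, at a mean of 17.5 ± 1.88 CPM (SD, n = 3) against 14.4 ± 0.455 CPM (log2 fold change 0.28, SE 0.16, adjusted p = 0.287). Nmi stood at 18.8, 18.1 and 19.3 CPM and 15.8, 20.5 and 16.4 CPM (log2 fold change -0.09, SE 0.16, adjusted p = 0.759). Samd9l, a restriction factor that also curbs cell growth, stood at 13.9, 9.45 and 8.99 CPM and 13.9, 12.5 and 8.86 CPM (log2 fold change 0.13, SE 0.23, adjusted p = 0.764). Xaf1, an inhibitor of the caspase inhibitor XIAP, was close in scrambled control, at 2.28, 2.09 and 2.13 CPM, and spread in IFNγR1KO libraries, at 3.84, 2.30 and 0.984 CPM (log2 fold change 0.13, SE 0.40, adjusted p = 0.87). Rtp4, a Golgi chaperone, stood at 0.651, 0.995 and 1.16 CPM and 1.28, 1.22 and 2.39 CPM (log2 fold change 0.78, SE 0.42, adjusted p = 0.245). Ifi44 had 0 to 3 counts and was not tested. Groups overlapped for Ifi27, Nmi, Samd9l and Xaf1 and did not for Ifi35 and Rtp4. Of the exonic lengths, 16.8% of Ifi35 lies under a gene on the other strand and 13.9% of Rtp4 under a gene on the same strand.

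Over the 21 tested genes that were not called, log2 fold changes ran from -0.56 (Dtx3l) to 0.78 (Rtp4), with SEs of 0.138 to 0.515, and 10 were below 0. The IFNγR1KO libraries were wholly lower for 6 of them (Ifit2, Ifitm3, Parp9, Parp12, Dtx3l and Sp100), wholly higher for 2 and overlapping for 13. Over all tested genes, called or not, 16.6% lay wholly below and 16% wholly above. The share among uncalled genes alone is not given here, so no common shift is read from these counts. A missed threshold does not show that these genes were equal in the groups.

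Per exonic length, the resting level differed widely among the antiviral genes. In scrambled control cells the highest means, in RPKM (± SD, n = 3), were 131 ± 21.7 for Bst2, 62.3 ± 4.02 for Lgals3bp, 58.2 ± 6.35 for Ifitm3, 55.7 ± 7.12 for Ifi27, 27.7 ± 10.5 for Ifitm2 and 12.0 ± 1.37 for Ifit2. Apart from Lgals3bp, none of the genes that were called was among these 6. The means plus or minus 1 SD of Lgals3bp, Ifitm3 and Ifi27 overlapped. The 28 genes with at least 1 CPM had a median of 4.24 RPKM, from 0.361 for Parp14 to 131 for Bst2, beside a median of 6.64 RPKM over the 13120 genes of all kinds that met the same limit, and 12 of the 28 lay above that median. Isg15 reached 18.8 RPKM in IFNγR1KO from 7.71 in scrambled control cells, and Ifit1 reached 4.85 from 0.993.

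**Figure D4:**
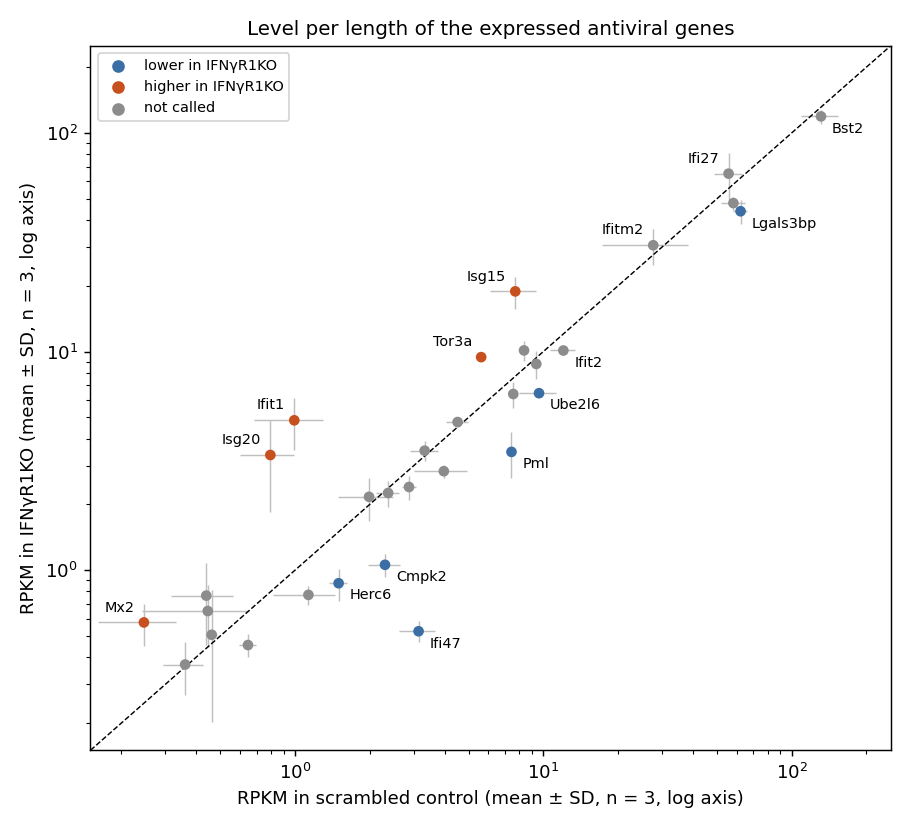
Mean RPKM of the 31 antiviral genes with at least 1 CPM in all 3 libraries of a group, in scrambled control (horizontal log axis) and IFNγR1KO cells (vertical log axis), with bars of 1 SD over 3 libraries and a dashed line of equal level. Isg15, Ifit1, Isg20, Mx2 and Tor3a sit above the line and Ifi47, Cmpk2, Pml, Herc6, Ube2l6 and Lgals3bp below it, while Bst2 sits near it at the highest level.

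The genes that carry the type I signal were counted in a list of 31 that holds ligands, receptors, kinases, transcription factors and negative regulators. The 17 ligand genes, among them Ifnb1 and the Ifna family, had 2 counts in total over the 6 libraries. Reads that map to multiple places were set aside, and sequence shared among the Ifna genes was not checked. These counts therefore do not show that transcripts of type I interferon were absent. Of the 12 genes tested, 2 were lower and 0 were higher by edgeR, beside the 7.62% and 7.73% of all genes, and DESeq2 gave 0 higher too. At an unadjusted p under 0.05 in edgeR, 2 were higher (Ifnar2 and Ptpn2). The 2 lower genes were among the 5 negative regulators tested, of which the other 3 were not called, and Ptpn2, with the opposite sign, is in the same group. Socs3, an inhibitor of receptor-bound JAK kinases, stood at 11.7, 13.9 and 14.5 CPM in scrambled control and 7.53, 6.64 and 8.43 CPM in IFNγR1KO libraries (log2 fold change -0.83, SE 0.19, adjusted p = 0.011), and Ptpn6, which encodes the phosphatase SHP-1, had 294, 344 and 294 counts in scrambled control and 141, 129 and 155 in IFNγR1KO libraries (log2 fold change -0.67, SE 0.15, adjusted p = 0.0116). Without IFNγR1KO replicate 11, 0 of the 2 calls were left, and without scrambled control replicate 2, 1 was. The share of all genes called in those fits is not given here.

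Ifnar1, Stat2 and Irf9 did not pass. Ifnar1 stood at 68.0, 62.1 and 75.1 CPM in scrambled control and 60.5, 60.4 and 62.1 CPM in IFNγR1KO libraries (log2 fold change -0.16, SE 0.13, adjusted p = 0.452). By real-time RT-PCR the study reported Ifnar1 mRNA as significantly upregulated in IFNγR1KO cells, the opposite sign to this estimate. The cause of the difference was not tested. Stat2 stood at 18.8, 14.9 and 16.1 CPM and 14.9, 13.0 and 14.1 CPM (log2 fold change -0.25, SE 0.17, adjusted p = 0.369), and Irf9 stood at 9.44, 7.66 and 7.73 CPM and 8.81, 8.67 and 9.14 CPM (log2 fold change 0.10, SE 0.19, adjusted p = 0.775). Irf7, the factor that amplifies type I interferon and a gene named here after its values were seen, was under the filter, with 7, 11 and 5 counts in scrambled control and 0, 0 and 1 in IFNγR1KO libraries. In the fit without a filter its adjusted p from edgeR was 0.00965, and the list then counted 3 lower genes.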

How the data were processed

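RNA-seq counts of 3 scrambled control and 3 IFNγR1KO cultures were used. The authors aligned paired-end reads of poly(A)-selected RNA to GRCm38 with STAR 2.7.5a, assigned them to genes with htseq-count (HTSeq 0.11.2) and deposited raw counts per gene. The annotation release and strand setting are not given in the sources used here. Rows that name no gene stayed out of library sizes, and they included 46.92% to 47.7% of reads in no gene and 3.762% to 4.609% mapped to multiple places. Genes were matched by Ensembl identifier without its version to GENCODE M21, which held 55154 of 55335. For 2 members (Isg15 and Mx1) the version in the tables was another than in that release. Exonic length was the union of all exons of a gene.

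In R 4.3.3, edgeR 4.0.16 was used with filterByExpr (minimum count 10, minimum total 15), TMM scaling and the quasi-likelihood test, and adjusted p-values are Benjamini-Hochberg values over all 13642 genes tested. A gene was called at an adjusted p under 0.05. The study's own test, DESeq2's Wald test (here version 1.42.0), was an alternative, as were RLE scaling, no filter, thinned libraries, leaving out each library and leaving out 8 members that overlap exons on the other strand. The fits were tested on simulated counts. The changed genes there were well counted and changed by more than most of the called members, so the outcome does not bear on weak or low-count calls. A floor of 3 counts in each library was used for undetected genes, and it covers counting error only.

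The members and gene lists were chosen with earlier results of these data known. Some genes of the signaling and marker lists are not reported here. By rule, every member was accounted for by role, and those called or with at least 1 CPM in all 3 libraries of a group were given in full. RefSeq promoter windows ran from 250 bases before to 50 bases after the start, and 30 of the 36 windows of members open a GENCODE transcript.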

Additional observations from a re-analysis of the deposited data

How the results depend on the processing

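The count of 6 lower antiviral genes was 5 by DESeq2, 6 with RLE scaling, without the filter and with thinned libraries, 4 without members that overlap exons on the other strand, and 3 with a log2 fold change beyond 1 in size. The count of 5 higher genes was 4, 5, 4, 4, 5 and 4 under the same settings in turn. Leaving out 1 library gave 3 to 5 lower genes (3 without IFNγR1KO replicate 10 and 3 without replicate 11) and 4 to 5 higher genes. The share of all genes called under these other settings is not given here, so a general loss of calls was not set apart. The median log2 fold change of -0.02 stayed below 0 by DESeq2, with RLE scaling, without the filter and with thinned libraries (-0.0327, -0.0237, -0.0528 and -0.049). Leaving out 1 library gave -0.184 to 0.033, with the sign turned without IFNγR1KO replicate 11, and the cause was not tested. The count of 2 lower signaling genes was 3 without the filter and 0 to 2 with 1 library left out, and 0 signaling genes were higher under every setting tried. Of the log2 fold changes of single members under these settings, 283 kept their direction and side of the threshold and 20 kept only their direction, all of the latter for Ube2l6, Herc6, Mx2 or Lgals3bp. The other 13 turned their sign without passing the test in any fit, all of genes that were not called. These were Parp14 without the filter (-0.000183) and with thinned libraries (-0.0468), and 11 values with 1 library left out, where the range was -0.211 to 0.195 for Parp14, -0.0017 to 0.147 for Adar, -0.174 to 0.0396 for Rsad2, -0.0139 to 0.501 for Ifitm2, -0.403 to 0.682 for Mx1, -0.387 to 0.494 for Xaf1 and -0.0108 to 0.347 for Samd9l. The cause was not tested. Genes with at least 1 CPM numbered 26 to 33 in scrambled control and 25 to 32 in IFNγR1KO cells under other limits. No paired analysis was possible because the replicate numbers 1, 2 and 3 and 10, 11 and 12 share none. With 3 libraries in a group and 1 count worth up to 0.142 CPM, Oas3, Oasl1, Ifi44 and Ifitm1 could not be compared.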

Other observations

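As a description added after the values were seen, the summed level of the 39 antiviral genes was 755.2, 820 and 759.6 CPM in scrambled control and 729.8, 699.3 and 678.3 CPM in IFNγR1KO libraries, so the groups did not overlap. Lgals3bp, the galectin-binding glycoprotein, took 164 to 186 CPM of the sum in scrambled control and 111 to 141 CPM in IFNγR1KO libraries. Without it the sum was 591, 638.4 and 573.8 CPM in scrambled control and 619, 576.8 and 537.3 CPM in IFNγR1KO libraries, and the groups overlapped.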
